A study of Danio rerio with 12 samples.

Results

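The phagocyte NADPH oxidase genes were followed in macrophage-lineage cells after acute CNS injury. The set was given as 6 gene names, *cybb*, *cyba*, *ncf1*, *ncf4*, *rac2* and *hvcn1*, and the rule was an exact match to a gene name in the table. All 6 were found, each in 1 row, among 22962 genes, and all 6 were among the 16085 genes that passed the filter on low values. GFP-positive cells had been sorted by FACS from zebrafish heads at 4 dpf. The larvae were of the *mpeg1:GFP* genotype, in which the *mpeg1* promoter drives GFP in microglia and peripheral macrophages. Both groups carried this transgene. In the 2 hpi group, the optic tectum was pierced with a fine metal pin and cells were isolated 2 h post injury. Sham larvae went through the same anaesthesia and mounting, and their brains were left intact. Heads of about 180 larvae were pooled for each library. The comparison was between 6 sham libraries and 3 libraries at 2 hpi, which carry the replicate numbers 1, 2 and 4. Of 12 samples, the 3 other samples at 2 hpi are labelled as excluded by the authors for high duplication and low mapping, and were not analysed here.

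The phagocyte NADPH oxidase passes electrons from cytosolic NADPH across a membrane to oxygen and thereby makes superoxide, which phagocytes release into phagosomes or to the outside. Its membrane core is a heterodimer of a catalytic subunit, encoded by *cybb*, and a small stabilising subunit, encoded by *cyba*. In resting cells, the subunits encoded by *ncf1* and *ncf4* stay in the cytosol, and they join the core upon stimulation together with the small GTPase Rac2. The voltage-gated proton channel encoded by *hvcn1* carries protons out and so balances the charge that the electrons move. In humans, loss of a core or cytosolic subunit causes chronic granulomatous disease. Neutrophils as well as macrophages use this enzyme.

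Values are CPM, in which a gene's reads are divided by the size of the library after the authors adjusted that size with a TMM factor for differences in composition. Between 6754699 and 8180104 reads lay on genes in each library, and the detection limit of 3 reads lay at 0.349 to 0.466 CPM, depending on the library. Nothing in the labels says whether libraries of a group came from separate clutches, so p-values measure the spread between these libraries. Sham replicate 3 stood apart on the first principal component, with a score of -57.8 against -25.8 to -0.89 in the other sham libraries and 34.2 to 47.3 at 2 hpi. On the second component, its score was -62.4, against 15.1 to 29.2 in the other sham libraries and -27.5 to -1.11 at 2 hpi. The lineage markers *mpeg1.1* (2299 to 2749 CPM over all libraries) and *csf1ra* (2003 to 2991 CPM) were high throughout. The neutrophil genes *mpx* (1427 to 2629 CPM) and *lyz* (268 to 449.8 CPM) were high as well. The neuronal gene *elavl3* (11.98 to 75.3 CPM) and the keratinocyte gene *krt4* (23.9 to 41.1 CPM) were lower. The haemoglobin genes *hbae3* (19.9 to 55.8 CPM), *hbbe1.1* (15.8 to 40.1 CPM) and *hbbe2* (11.8 to 28.7 CPM) were at similar levels, and *hbae1.1* had at most 3 reads in any library. The 9 neutrophil markers found summed to 8742 to 11973 CPM in sham and 10174 to 13416 CPM at 2 hpi. For the 12 macrophage lineage markers, the sum was 9077 to 10599 CPM in sham and 10859 to 11954 CPM at 2 hpi. The latter sum includes *spi1b*, itself higher at 2 hpi (1144 to 1540.3 CPM in sham, 1589 to 2108 CPM at 2 hpi). Of the 12 markers, *spi1b* was the only 1 whose groups did not overlap, with 1 higher and 0 lower, against 5.73% and 4.61% of all genes. A sum without *spi1b* is not given, so the gap between the sums is not read as a rise of the other markers. The higher neutrophil sum at 2 hpi lay in *mmp9* and *mmp13a*, which macrophages are also known to make, and the 7 other markers summed to 6647 to 8391 CPM in sham and 5864 to 7581 CPM at 2 hpi. The sorted RNA thus held transcripts of neutrophil genes, and their part in the levels of the oxidase genes was not tested. In such bulk libraries, fewer cells of a type and less RNA per cell cannot be told apart.

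None of the 6 oxidase genes changed between sham and 2 hpi at FDR<0.01 in limma with Benjamini-Hochberg adjustment over all genes tested. Among all 16085 genes, 443 passed (2.75%). Before adjustment, 1 of the 6 genes, *ncf1*, had a p below 0.05, against 17.6% of all genes. With edgeR's quasi-likelihood F-test and with DESeq2 on the recovered reads, 0 of the 6 genes had an FDR<0.01 and 0 had an unadjusted p below 0.05. With limma-voom, 0 had an FDR<0.01 and 1 had an unadjusted p below 0.05. Of all genes, 16.9% had such a p with edgeR, 18.1% with DESeq2 and 15.9% with limma-voom. In no oxidase gene were the groups free of overlap, as they were in 5.73% of all genes with higher and in 4.61% with lower values at 2 hpi. The log2FC values of the 6 genes, 2 hpi over sham, were all above 0, as were 47.9% of those of all genes tested. This share also stands beside the counts of higher and lower genes in the other lists below. The 6 values lay from 0.01 to 0.32, with a median of 0.14 against -0.02 over all genes tested. All 6 stayed above 0 with RLE and upper quartile scaling. With library size alone, *cybb*, *ncf4* and *rac2* were below 0, a scaling that moved the median of all genes to -0.13. *cybb* was also below 0 with edgeR (-0.0399) and DESeq2 (-0.0313). The median size of the log2FC, regardless of sign, was 0.14 for the oxidase genes and 0.29 for all genes. All genes include many of low level. Genes of like level were not compared apart, so this is not read as a smaller response of the oxidase genes. Levels of different genes are not ranked here, since transcript lengths were not used.

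**Figure D1:**
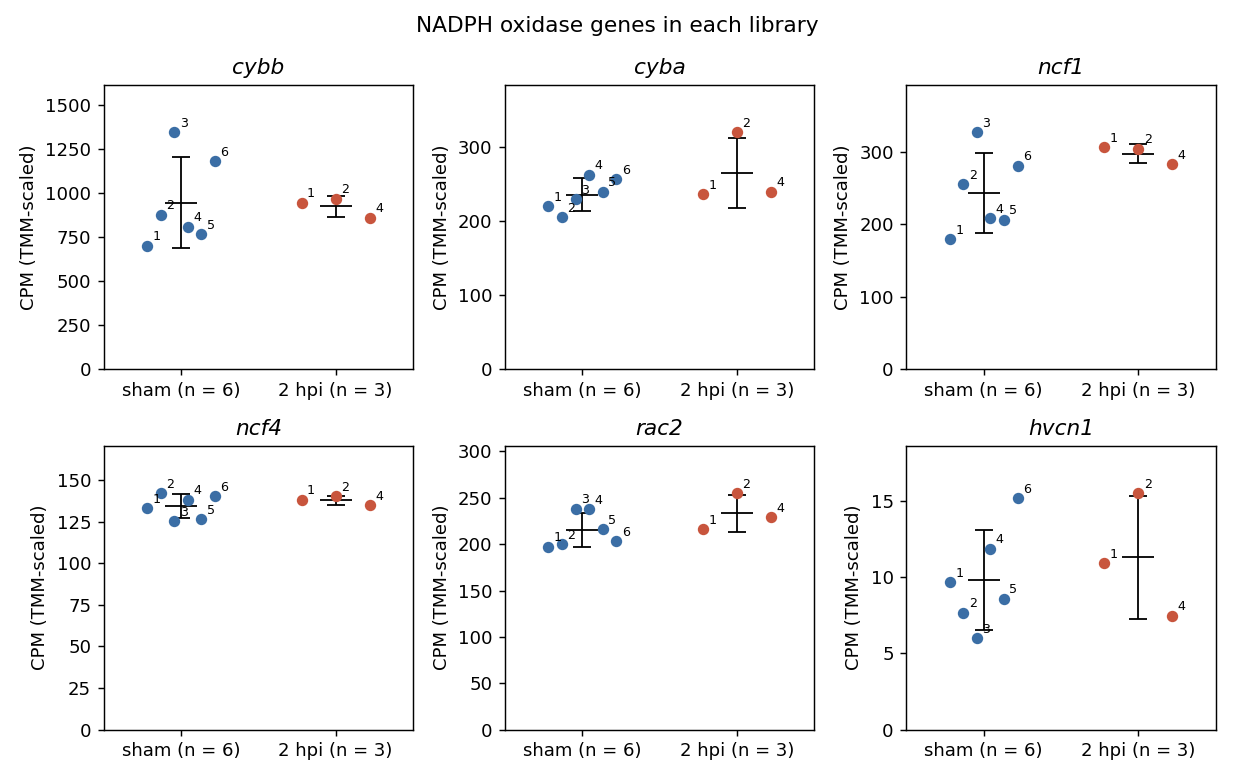
CPM of the 6 NADPH oxidase genes (y axes, linear and starting at 0) in 6 sham libraries (blue) and 3 libraries at 2 hpi (red), each point labelled with its replicate number, with mean and SD in black. The groups overlap in every panel, and sham replicates 3 and 6 are the 2 highest sham libraries for both *cybb* and *ncf1*.

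The membrane core came first. For *cybb* (ENSDARG00000056615), the sham libraries ranged from 699.6 to 1344 CPM with a median of 841 CPM, and the libraries at 2 hpi had 943, 967 and 858 CPM. All 3 libraries at 2 hpi thus lay above the sham median and below sham replicates 3 (1344 CPM) and 6 (1180.0 CPM). Mean and SD were 945 ± 257 CPM for sham (n = 6) and 923 ± 57.4 CPM for 2 hpi (n = 3), with p = 0.905 in a two-sided exact permutation test. The log2FC of *cybb* was 0.01, with a standard error of 0.16 and a 95% interval of -0.32 to 0.33 (FDR = 0.992 in limma). The interval corresponds to 0.802-fold to 1.26-fold. At 5424 to 10290 reads per library, the depth for *cybb* is the highest of the set, and counting error amounts to 1.18% of the sham mean, against a spread of 27.2% between sham libraries.

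For *cyba* (ENSDARG00000018283), the sham libraries had 205 to 262 CPM with a median of 235 CPM, and the libraries at 2 hpi had 236, 320.0 and 239 CPM. Replicate 2 at 2 hpi alone exceeded the sham range. Mean and SD were 236 ± 21.9 CPM for sham (n = 6) and 265 ± 47.5 CPM for 2 hpi (n = 3), with p = 0.25 in a two-sided exact permutation test. The log2FC of 0.16 (standard error 0.13, 95% interval -0.10 to 0.42, FDR = 0.569 in limma) became 0.02 without replicate 2 at 2 hpi.

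Among the cytosolic subunits, *ncf1* (ENSDARG00000033735), which encodes the organiser that brings the cytosolic complex to the membrane, had the highest log2FC of the set. The sham libraries had 179 to 327 CPM with a median of 232 CPM, and the libraries at 2 hpi had 306, 305 and 283 CPM. Each library at 2 hpi was thus higher than 5 of the 6 sham libraries, and sham replicate 3 (327 CPM) was higher than all 3. Mean and SD were 243 ± 55.4 CPM for sham (n = 6) and 298 ± 13.2 CPM for 2 hpi (n = 3), with p = 0.167 in a two-sided exact permutation test. The log2FC of 0.32 had a standard error of 0.15 and a 95% interval of 0.01 to 0.64, or 1.01-fold to 1.56-fold. The unadjusted p of 0.0446 did not pass the correction over all genes (FDR = 0.267 in limma). Without sham replicate 3, the log2FC was 0.42 (FDR = 0.0793 in limma). Without sham replicate 1, it was 0.24 (FDR = 0.438 in limma).

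The level of *ncf4* (ENSDARG00000040812), whose product binds a phosphoinositide of the phagosome membrane, was nearly the same in every library. It was 125 to 142 CPM in sham, with a median of 136 CPM, and 138, 140.4 and 135 CPM at 2 hpi. All 3 libraries at 2 hpi lay within the sham range. Mean and SD were 134 ± 7.19 CPM for sham (n = 6) and 138 ± 2.68 CPM for 2 hpi (n = 3), with p = 0.44 in a two-sided exact permutation test. A log2FC of 0.04 was obtained for *ncf4*, with a standard error of 0.12 and a 95% interval of -0.21 to 0.29, or 0.863-fold to 1.23-fold (FDR = 0.913 in limma).

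The GTPase gene *rac2* (ENSDARG00000038010) had 197 to 238 CPM in sham, with a median of 209.7 CPM, and 216, 255 and 229 CPM at 2 hpi. Replicate 2 at 2 hpi exceeded the sham range, as it did for *cyba*. Mean and SD were 215 ± 18.5 CPM for sham (n = 6) and 233 ± 19.98 CPM for 2 hpi (n = 3), with p = 0.214 in a two-sided exact permutation test. This gave a log2FC of 0.12 with a standard error of 0.12 and a 95% interval of -0.13 to 0.36 (FDR = 0.684 in limma). How the counting treated reads that match both *rac2* and a close copy is not stated in the sources used here.

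The proton channel gene *hvcn1* (ENSDARG00000040338) was the least covered gene of the set, with 46 to 109 reads per library. Its level was 6.01 to 15.2 CPM in sham, with a median of 9.13 CPM, and 10.9, 15.5 and 7.48 CPM at 2 hpi. Replicate 2 at 2 hpi was again the highest library, and replicate 4 was lower than all but 1 sham library. Mean and SD were 9.84 ± 3.27 CPM for sham (n = 6) and 11.3 ± 4.04 CPM for 2 hpi (n = 3), with p = 0.548 in a two-sided exact permutation test. The log2FC of 0.19 (standard error 0.34, FDR = 0.835 in limma) had a 95% interval of -0.51 to 0.90, or 0.702-fold to 1.86-fold. Counting error amounted to 11.6% of the sham mean of *hvcn1*, against a spread of 33.3% between sham libraries, and without replicate 2 at 2 hpi the log2FC was -0.06.

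The oxidase genes differed in how far the sham libraries spread. Among the 1846 genes whose sham mean reached 100 CPM, the median coefficient of variation between sham libraries was 12.2%. That of *cybb* was 27.2%, higher than in 97.4% of these genes, and that of *ncf1* was 22.8%, higher than in 93.7% of them. In contrast, *ncf4* had 5.36%, and only 3.30% of these genes had a smaller value. *cyba* (9.30%) and *rac2* (8.61%) lay between them. For *ncf4*, counting error alone amounted to 3.11% of the sham mean.

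**Figure D2:**
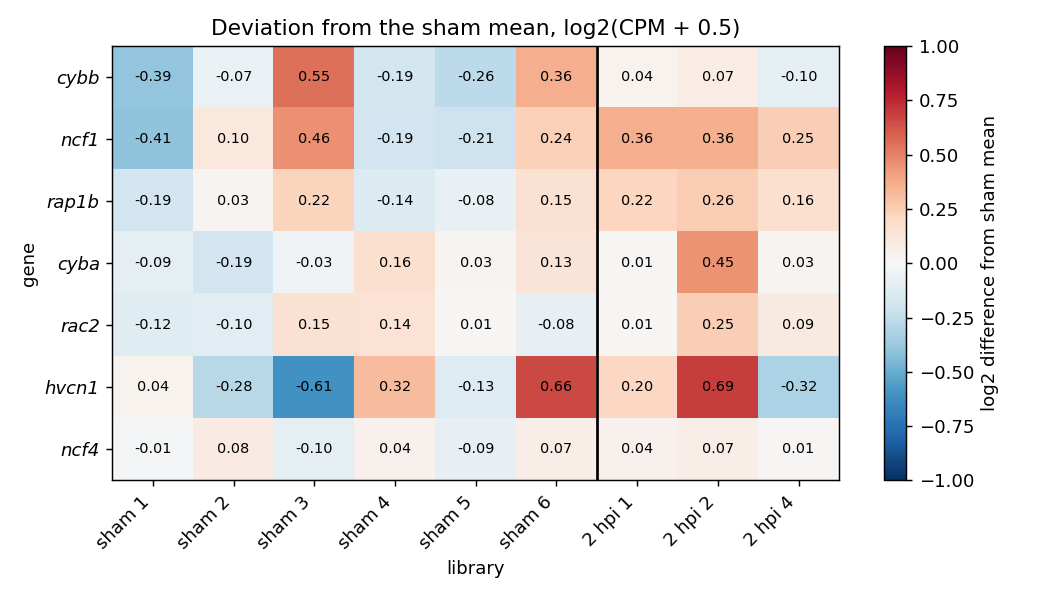
Difference of log2(CPM + 0.5) from the mean of the 6 sham libraries (colour and printed value) for *cybb*, *ncf1*, *rap1b*, *cyba*, *rac2*, *hvcn1* and *ncf4* (rows) in each of 9 libraries (columns). In sham replicate 3, *cybb* and *ncf1* lie at 0.55 and 0.46, and *ncf4* stays between -0.10 and 0.08 in every library.

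The spread of *cybb* and *ncf1* was shared. Over the 6 sham libraries, Pearson's r of their log2 levels was 0.96, and both genes were lowest in replicate 1 and highest in replicates 3 and 6. Of the 15 pairs within the set, this was the highest r in sham, where the other pairs had between -0.45 and 0.67. These values are descriptions over 6 libraries that also share their scaling. The neutrophil markers of sham replicates 3 and 6 differed from gene to gene. *mpx* was at 2064 CPM in replicate 3 and at 2629 CPM, the highest of all libraries, in replicate 6, while *pnp5a*, at 90.9 and 48.5 CPM, was higher in these replicates than in the other sham libraries. The 9 markers summed to 9609 CPM in replicate 3 and 11973 CPM in replicate 6, with a sham median of 9489 CPM. Without *mmp9* and *mmp13a*, the sum was 7082 CPM in replicate 3, below the sham median of 7228 CPM, and 8391 CPM in replicate 6. Over the sham libraries, r with the sum of all 9 on the log2 scale was 0.59 for *cybb* and 0.52 for *ncf1*. With the sum that leaves out *mmp9* and *mmp13a*, it was 0.34 and 0.22. With the microglial gene *apoeb*, r was -0.12 for *cybb* and -0.20 for *ncf1*. In the other oxidase genes, r with *apoeb* was -0.25 for *cyba*, -0.86 for *ncf4*, 0.01 for *rac2* and -0.48 for *hvcn1*. The contribution of either cell type to the spread was not tested.

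Within a library, the ratio of *cybb* to *ncf1* is free of the library's scaling. On the log2 scale of CPM, it lay between 1.78 and 2.07 in sham (median 1.96), and at 1.62, 1.67 and 1.60 at 2 hpi. All 3 libraries at 2 hpi thus lay below all 6 sham libraries, with a difference of -0.32 between the means. It was the only 1 of the 15 ratios within the set in which the groups did not overlap. As this ratio was singled out among 15 after its values were seen, no test is given for it. How often ratios of other genes were free of overlap was not computed. Among single genes, the groups were free of overlap in 5.73% with higher and in 4.61% with lower values at 2 hpi. The other ratios of *ncf1* overlapped, such as that to *ncf4*, at 0.43 to 1.38 in sham and 1.07 to 1.15 at 2 hpi.

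**Figure D3:**
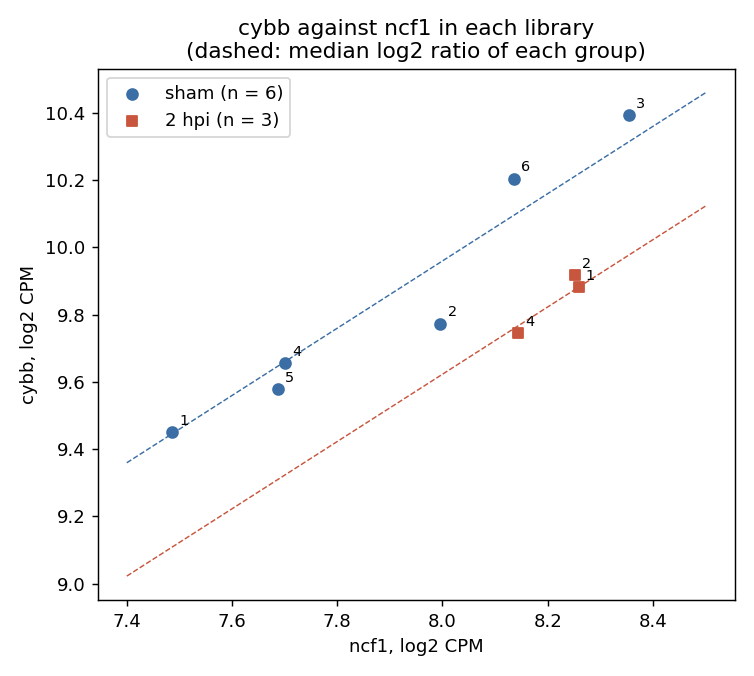
Log2 CPM of *cybb* (y axis) against log2 CPM of *ncf1* (x axis) in 6 sham libraries (blue circles) and 3 libraries at 2 hpi (red squares), labelled with replicate numbers; dashed lines mark the median log2 ratio of each group, 1.96 in sham and 1.62 at 2 hpi. The log2 ratios of the sham libraries run from 1.78 in replicate 2 to 2.07 in replicate 6. The libraries at 2 hpi lie at 1.60 to 1.67, with sham replicate 2 the nearest sham library to them.

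Partners and close relatives of the set were compared in the same way. Of 16 genes listed, 11 were found and 8 were tested. None of the 8 passed FDR<0.01 in limma, against 2.75% of all genes. None had an unadjusted p below 0.05 in limma, against 17.6% of all genes. Of the 8, 6 were higher and 2 lower at 2 hpi, with a median log2FC of 0.07. The gene *cybc1*, which encodes a chaperone of the membrane core in mammals, had 38.3 to 70.4 CPM in sham and 56.8 to 58.8 CPM at 2 hpi, and its log2FC was 0.09 (standard error 0.18).

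The other Rac genes had a log2FC of -0.10 for *rac1a*, 0.41 for *rac1b* and 0.01 for *rac3b*, with standard errors of 0.22, 0.23 and 0.40. For *rac1b*, the libraries at 2 hpi had 29.7 to 30.9 CPM, below sham replicate 6 (33.8 CPM) and above the other sham libraries. Among the genes of Rap1, a small GTPase that copurifies with the membrane core in human neutrophils, the log2FC was 0.21 for *rap1b*, -0.07 for *rap1aa* and 0.06 for *rap1ab* (standard errors 0.11, 0.17 and 0.26). The non-phagocyte oxidase gene *nox1* had only 3 to 38 reads per library and a log2FC of 0.73 with a 95% interval of -0.38 to 1.84. The genes *noxo1a*, *noxo1b* and *rac3a* had at most 15 reads in any library and were not tested.

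Of the genes whose pattern over the 9 libraries was most like that of a member, 1 was itself in this list. For *ncf1*, the highest r among 11408 other genes averaging 5 CPM or more was that of *rap1b* (0.98 over 9 libraries, 0.99 over the 6 sham libraries), followed by *si:dkey-12f6.2* (0.96). The level of *rap1b* was 445 to 596 CPM in sham, with a median of 502 CPM, and 592, 609 and 569.6 CPM at 2 hpi. Only sham replicate 3 reached the range of the libraries at 2 hpi, so that *ncf1* and *rap1b* shared the same highest sham library. For *cybb*, the nearest patterns were those of *uqcrc2b* (0.96), a subunit of respiratory complex III, and *b4galnt1a* (0.96). They were *bmpr2b* and *ctsh* for *cyba* (0.93 and 0.92), *haus1* and *kcnn1b* for *ncf4* (0.96 and 0.95), *h2afva* and *cntrl* for *rac2* (0.95 and 0.93), and *CDR2 (1 to many)*, as the table names it, and *si:dkey-37m8.8* for *hvcn1* (both 0.94). With so many candidate genes and 9 libraries, values of this size are descriptions only.

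Genes that signal to the oxidase were listed as a further group. Of 23 genes, 21 were found and 19 were tested, and 6 were higher and 13 lower, with a median log2FC of -0.08. At FDR<0.01 in limma, 0 rose and 1 fell, against 0.628% of all genes that fell. This was *pik3cd* (ENSDARG00000003250), which encodes the delta catalytic subunit of PI3-kinase, the enzyme family that makes phosphoinositides. It had 111 to 176 CPM in sham, with a median of 147 CPM, and 85.8, 98.3 and 94.3 CPM at 2 hpi. All 3 libraries at 2 hpi lay below all 6 sham libraries. The resulting log2FC of -0.65 had a standard error of 0.15 and an FDR of 0.00932 in limma, close to the threshold. When each library was left out in turn, the call was lost in 7 of 9 fits, with the lowest size, -0.59 (FDR = 0.0616 in limma), without replicate 1 at 2 hpi. In the fits without sham replicate 1, 2, 4 or 6 or without replicate 2 or 4 at 2 hpi, its log2FC was between -0.69 and -0.59. It was lost in 6 of the 12 other alternatives as well.

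The protein kinase C genes *prkcda*, *prkcdb*, *prkcba*, *prkcbb* and *prkca*, whose mammalian counterparts phosphorylate the organiser subunit, had log2FC values between -0.24 and 0.20. The beta 2 integrin gene *itgb2* (-0.13) and the kinase gene *syk* (-0.08), both of which act upstream of the oxidase in mammalian phagocytes, did not pass the test either. The highest log2FC of the list was 0.47 for *card9* (FDR = 0.102 in limma), whose groups overlapped. The PI3-kinase regulatory gene *pik3r5* had 156 to 206 CPM in sham and 227 to 263 CPM at 2 hpi, without overlap. Its log2FC was 0.43 (FDR = 0.0438 in limma). In the other direction, *prex1*, which encodes an exchange factor of Rac, had 204 to 247 CPM in sham and 164 to 190 CPM at 2 hpi, also without overlap, with a log2FC of -0.32 (FDR = 0.141 in limma). With *pik3cd*, 1 of the 19 signalling genes was thus higher and 2 were lower without overlap, against 5.73% and 4.61% of all genes. Before adjustment, 4 of the 19 had a p below 0.05 in limma, against 17.6% of all genes.

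**Figure D4:**
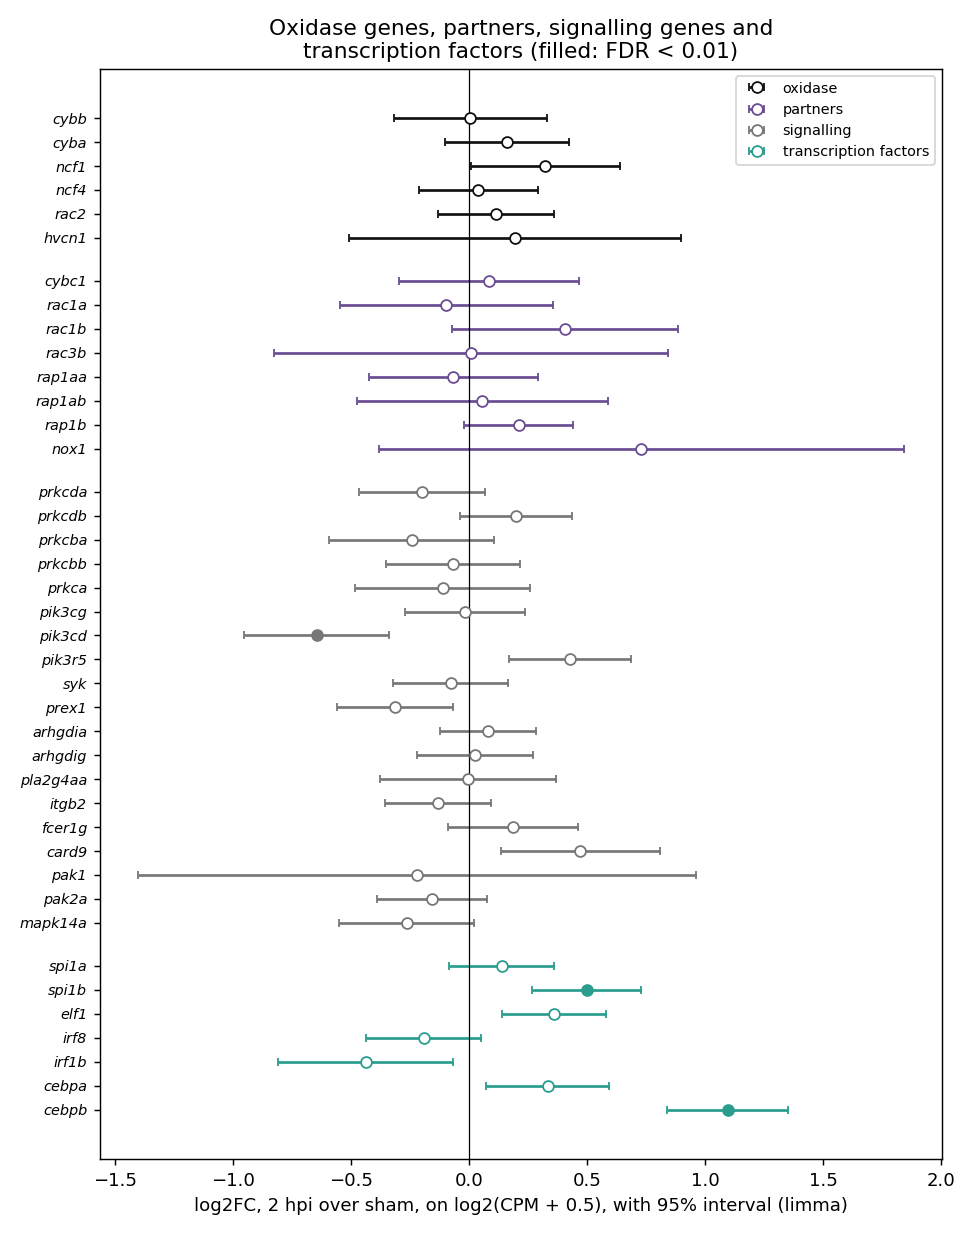
log2FC of 2 hpi over sham (x axis, limma on log2(CPM + 0.5), bars are 95% intervals) for the 6 oxidase genes, tested partners and paralogues, tested signalling genes and myeloid transcription factors. Filled symbols mark FDR<0.01, which are *pik3cd* at -0.65, *spi1b* at 0.50 and *cebpb* at 1.097; all 6 oxidase genes are open symbols between 0.01 and 0.32.

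Transcription factors of the myeloid lineage, several of which act on the promoter of *CYBB* in mammals, were compared beside the oxidase genes. All 7 were tested, and 2 rose at FDR<0.01 in limma, against 2.13% of all genes that rose. The first was *cebpb* (ENSDARG00000042725), which had 181 to 256 CPM in sham, with a median of 195 CPM, and 459.9, 436 and 398 CPM at 2 hpi. The lowest library at 2 hpi was well above the highest sham library. Limma gave a log2FC of 1.097 with a standard error of 0.12 and an FDR of 3.46e-06, and the call held in all 21 alternatives. The second was *spi1b* (ENSDARG00000000767), which encodes the factor PU.1 and had 1144 to 1540.3 CPM in sham, with a median of 1304 CPM, and 2108, 1589 and 1966 CPM at 2 hpi. The groups did not overlap, and limma gave a log2FC of 0.50 with a standard error of 0.11 and an FDR of 0.00751.

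When each library was left out in turn, the call of *spi1b* was lost in 6 of 9 fits, namely without sham replicate 2, 3, 4 or 6 or replicate 1 or 4 at 2 hpi, with log2FC values of 0.41 to 0.50. It was also lost in 2 of the other alternatives. The remaining factors did not pass. The log2FC was 0.36 for *elf1* (FDR = 0.0491 in limma), 0.33 for *cebpa*, 0.14 for *spi1a*, -0.19 for *irf8* and -0.44 for *irf1b* (135, 213 and 255 CPM at 2 hpi against a sham range of 187 to 346 CPM). The rise of *cebpb* stood beside a log2FC of *cybb* whose 95% interval ended at 0.33. A relation between these genes was not tested.

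Marker genes of the cell types that the sort could hold were compared as well. Of the 9 neutrophil markers tested, 3 rose at FDR<0.01 in limma, and none fell, against 2.13% and 0.628% of all genes. These were *mmp9* (log2FC 2.18), *mmp13a* (0.77) and *pnp5a* (1.34), of which the first 2 encode secreted matrix metalloproteinases that macrophages are also known to make. Among the markers that did not pass, the log2FC was -0.33 for *mpx*, -0.14 for *npsn* and 0.19 for *lyz*. The level of *mpx* was 1731, 2104 and 1427 CPM at 2 hpi, with a sham range of 1920.1 to 2629 CPM. The call of *mmp13a* was lost without replicate 1 (log2FC 0.69) or 2 (0.71) at 2 hpi, and with no filter (FDR = 0.0133 in limma). That of *pnp5a* was lost without replicate 2 (1.195) or 4 (1.397) at 2 hpi, and with DESeq2 (FDR = 0.0165). Of the 8 microglia markers, 1 rose, *slc7a7* (0.85), and of the 12 macrophage lineage markers, 1 rose, *spi1b*. Of the neuronal, erythrocyte, keratinocyte and lymphocyte markers, 25 were tested. Of these, 0 passed FDR<0.01 and 2 had an unadjusted p below 0.05 in limma, against 2.75% and 17.6% of all genes. Their part in the values of the oxidase genes was not tested.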

How the data were processed

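RNA-seq libraries of sorted cells were compared between 6 sham samples and 3 samples at 2 hpi. According to the submitters' processing notes and the study's methods, reads were processed with cutadapt 1.9, STAR 2.5.2b on GRCz10, featureCounts 1.5.1 on exons and edgeR 3.20.1. The deposited values, of the unit signal, are CPM scaled by the authors with TMM factors after genes of mostly near-zero counts were removed. Log2 fold changes and p-values that the authors deposited for their own comparison were not used. The annotation release is not given in the sources used here.

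The value of 1 read was found for each library, and values were turned into reads. Within 0.02 reads, 100% of values were whole. Genes were kept with filterByExpr (minimum count 10, minimum total 15), which left 16085. Limma 3.58.1 (R 4.3.3) was fitted on log2(CPM + 0.5) with a variance trend and the condition as the only factor, with Benjamini-Hochberg adjustment and a threshold of 0.01. A log2FC on this scale understates changes of low genes. Two-sided exact permutation tests of single genes ran over 84 splits, and their smallest possible p is 0.0119.

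Alternatives were RLE, library size and upper quartile scaling, no filter or at least 10 reads in every library, pseudocounts of 0.1 and 1, edgeR 4.0.16 (quasi-likelihood F-test), DESeq2 1.42.0 and limma-voom on recovered reads, an FDR threshold of 0.05, a replicate block and leaving out each library. The genes and lists were chosen with earlier results of these data known. Named were the 6 genes, list members with FDR<0.01, all listed partners and transcription factors found, the 2 nearest patterns of each gene and markers of the sort. Some partner and NADPH supply genes are not reported here and are left out of the list counts. Genes of the signalling and disposal lists named without passing were chosen after their values were seen, as were *npsn*, *apoeb* and *tkt*. The name table held 90.6% of the gene identifiers and supplied the match for *cybc1*, *elf1*, *tkt*, *hbae1.1* and *ighm*.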

Additional observations from a re-analysis of the deposited data

Results flagged for a closer look

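In the groups of 6 sham libraries, 21 genes (the oxidase genes, tested partners and transcription factors) were examined for a library far from the others, a rule by which chance marks about 1 in 20 genes. It marked 2 genes. For *rap1ab*, sham replicate 3 had 39.1 CPM and the next highest sham library had 21.7 CPM. For *cebpb*, sham replicate 2 had 256 CPM and the next highest had 203 CPM, and without that library the log2FC of *cebpb* was 1.17. None of the 6 oxidase genes was marked.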

How the results depend on the processing

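In all 21 alternatives, 0 of the 6 oxidase genes passed the threshold. The value of *cybb*, near 0, changed sign with library size alone (-0.11), edgeR (-0.0399), DESeq2 (-0.0313) and in the fits without sham replicates 1, 2, 4 or 5 or replicate 1 or 2 at 2 hpi. With library size alone, *ncf4* (-0.0795), *rac2* (-0.00363) and *cybc1* (-0.0327) were also below 0. Leaving out single libraries gave a log2FC of -0.0733 to 0.12 for *cybb*, 0.02 to 0.24 for *cyba*, 0.24 to 0.42 for *ncf1*, 0.02 to 0.06 for *ncf4*, 0.05 to 0.17 for *rac2*, -0.0555 to 0.45 for *hvcn1*, with its lowest value without replicate 2 at 2 hpi, and -0.0150 to 0.16 for *cybc1*. The number of all genes past the threshold was 226 to 494 in these fits, the lowest without replicates 4 (226) and 1 (264) at 2 hpi, 746 with DESeq2 and 912 at an FDR threshold of 0.05. Higher values at 2 hpi made up 77.2% of all calls, 57.0% with library size alone and 88.5% with limma-voom. The replicate numbers were not taken to pair the samples, since the labels do not say that they mark days or batches. Deviations of same-numbered libraries correlated at 0.13, 0.11 and 0.02 for numbers 1, 2 and 4. For numbers 1 and 2, no other sham library correlated more. Number 4 correlated best with sham replicate 3 (0.0265, against 0.0245). The paper's RT-qPCR compared samples made on the same day, some of them also used for its RNA-seq. Whether the numbers stand for such pairs cannot be told here. A replicate block leaves sham replicates 3, 5 and 6 without a library at 2 hpi of the same number. Its log2FC thus rests on replicates 1, 2 and 4 of each group. Sham replicates 3 and 6, the highest sham libraries for *cybb* and *ncf1*, do not enter it. With this block, *ncf1* had a log2FC of 0.49 (FDR = 0.0136 in limma) and *cybb* 0.22 (FDR = 0.237 in limma). In that fit, 632 genes passed, and none of the 6 oxidase genes did. An unadjusted p below 0.05 in limma was found there for 2 of the 6, *ncf1* and *cybb*, against 19.2% of all genes. For *hvcn1*, the spread between sham libraries (33.3%) exceeded counting error (11.6%), and the part of its low level in that spread was not tested.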

Other observations

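A further list held genes of pathways that supply NADPH, the electron donor of the oxidase. Not every enzyme in it makes NADPH itself. All 7 listed genes were found, and none passed FDR<0.01 in limma, against 2.75% of all genes. The median log2FC was -0.04, with 3 genes higher and 4 lower. The gene *pgd*, which encodes an enzyme of the pentose phosphate pathway, had a log2FC of -0.11 (standard error 0.13). An unadjusted p below 0.05 in limma was found for *tkt* alone, against 17.6% of all genes. Its product, transketolase, belongs to that pathway but does not make NADPH itself. The level of *tkt* was 7.23 ± 3.40 CPM for sham (SD, n = 6) and 3.02 ± 0.946 CPM for 2 hpi (SD, n = 3). Its log2FC was -1.01 (FDR = 0.249 in limma), at 15 to 82 reads per library.

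Of 12 genes listed for the disposal of superoxide and peroxide, 10 were found and 9 were tested. None of the 9 passed FDR<0.01 in limma, against 2.75% of all genes. The median log2FC was -0.02, with 3 genes higher and 6 lower. In *sod2*, the mitochondrial superoxide dismutase, and in *cat*, catalase, all 3 libraries at 2 hpi lay below all 6 sham libraries. These were 2 of the 9 genes tested, against 4.61% of all genes, and 0 of the 9 were higher without overlap, against 5.73%. *sod2* had 25.2 to 32.2 CPM in sham and 14.7 to 24.8 CPM at 2 hpi (log2FC -0.53, FDR = 0.185 in limma), and *cat* had 235 to 279 CPM in sham and 212 to 228 CPM at 2 hpi (log2FC -0.23, FDR = 0.294 in limma).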
